A study of Mus musculus with 2 samples.

Results

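Integrins are the cell surface receptors through which cells hold on to their matrix, each built from an alpha and a beta subunit, and laminins, nidogens, perlecan, agrin, fibronectin and the fibrillins are among the extracellular proteins they or dystroglycan attach to. In basement membranes, trimers of an alpha, a beta and a gamma laminin chain form a sheet that nidogens and perlecan link to a collagen IV network. Chondrocytes have no continuous basement membrane but are known to surround themselves with a pericellular matrix that holds perlecan, nidogens and laminins. The set described here was taken by a rule on gene symbols and not on values, chosen with earlier results of these data known. It takes all genes whose symbol begins with Itga or Itgb, all laminin chain genes, and Nid1, Nid2, Hspg2, Agrn, Dag1, Fn1, Fbn1 and Fbn2. It holds 50 of the 21878 genes listed, of which 27 encode integrin subunits, 4 are named after integrins without encoding a subunit, 11 encode laminin chains and 8 encode the other glycoproteins.

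RNA was sequenced from primary chondrocytes of C57BL/6 mice that had received lentivirus with a hairpin RNA. The shNC library comes from cells with a control hairpin and the shGpx4 library from cells with a hairpin against Gpx4, the gene of glutathione peroxidase 4, an enzyme that removes lipid hydroperoxides. Both were grown in DMEM with 10% serum. There is 1 library per group, and the labels give neither the age or number of the animals, nor a second hairpin, nor whether the cultures shared animals, so hairpin and culture cannot be told apart. No difference was tested, no p-value is given, and each value describes these 2 libraries.

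The libraries held 19729142 reads (shNC) and 21313211 reads (shGpx4), as recovered from the deposited values. Levels are in FPKM, reads scaled by gene length and library total, so levels of different genes can be set side by side. Gpx4 itself was at 161 FPKM in shNC against 96.2 in shGpx4, where 59.9% of the shNC level remained. Of the chondrocyte markers, Acan, Matn1 and Col9a1 were at or near 0 in both libraries. Comp (1666 and 1421 FPKM), Sox9 (21.8 and 18.2 FPKM) and Sox6 (1.83 and 1.40 FPKM) were present and lower in shGpx4. Col2a1 (8.96 and 58.4 FPKM, log2 ratio 2.58), Lect1 (124 and 270.0 FPKM, 1.12), Hapln1 (7.52 and 8.46 FPKM) and Sox5 (2.92 and 3.39 FPKM) were higher. All 8 fibroblast markers were measured, with a summed level of 5233 FPKM in shNC against 6953 in shGpx4. Without Dcn (2808 and 5042 FPKM) the other 7 summed to 2425 and 1911 FPKM. Of these 7, 5 were higher in shGpx4 and 2 lower, namely Postn (948 and 327 FPKM) and Col1a2 (678 and 654 FPKM). The cultures also differed in 4 Y-linked genes, whose summed level was 33.9 FPKM in shNC against 14.6 in shGpx4, and in 4 proliferation genes (Mki67, Top2a, Ccnb2 and Ube2c), summed to 15.0 and 40.3 FPKM. The part of these differences in the values below was not tested. A change in the mix of cells and a change of RNA per cell cannot be told apart in such bulk RNA.

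The members that differed by size were few. A gene is called measured here at a mean of at least 1 FPKM over both libraries, which 25 of the 50 members reached, each of them with at least 1 FPKM in both libraries. The ratio of each gene is the log2 of its FPKM with 1 added in shGpx4 divided by the same in shNC, which makes differences between low values look smaller than they are. By this ratio 2 of the 25 measured members, Itga3 and Nid1, were at least 1.5-fold higher in shGpx4, beside 2.99% of all 10997 measured genes. Only Itgbl1 among the 25 was at least 1.5-fold lower, beside 1.96% of all measured genes. All 3 were also past 2-fold, the size reached by 1.02% of measured genes upward and 0.527% downward. The median ratio of the 25 was 0.09, beside -0.04 over all measured genes, and 14 of the 25 lay within 0.25 of 0.

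Where a counting interval is given it is the exact 95% interval of log2 of the FPKM ratio itself, with nothing added, and it covers counting error only. For low genes, and for large differences such as that of Itgbl1, the log2 ratio with 1 added can therefore lie outside its own interval. Where levels stand in pairs, shNC comes first, and the figure in parentheses is the log2 ratio with 1 added. Among the 25, this interval lay above 0 for 13 and below 0 for 5, beside 18.1% and 27.3% of all measured genes, and held 0 for the other 7. The intervals rest on the lowest whole read counts that fit both libraries, so some may be too wide and hold 0 for that reason. A narrow interval says nothing of the spread between cultures.

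The stretches upstream of 4 members are shown because Itga3 and Nid1 were the 2 higher members, Itgbl1 the lower one and Itgb5 the abundant subunit with the lowest ratio. They are read 5′ to 3′ from RefSeq's promoter windows on GRCm38.p6 and hold only bases outside the annotated gene. Capitals mark matches to the GC box (GGGCGG or CCGCCC), the CCAAT box (CCAAT or ATTGG), the TATA box (TATAAA or TTTATA) and the AP-1 site (TGANTCA), searched on both strands.
Itga3 (chr11:95076845-95076964, minus strand): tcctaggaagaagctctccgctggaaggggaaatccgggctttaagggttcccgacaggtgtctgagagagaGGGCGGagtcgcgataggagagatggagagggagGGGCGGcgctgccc
Nid1 (chr13:13437352-13437601, plus strand): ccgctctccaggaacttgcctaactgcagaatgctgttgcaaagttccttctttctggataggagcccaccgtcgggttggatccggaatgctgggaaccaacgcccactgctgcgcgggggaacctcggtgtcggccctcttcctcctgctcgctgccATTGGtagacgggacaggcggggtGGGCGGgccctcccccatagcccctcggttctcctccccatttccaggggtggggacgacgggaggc
Itgbl1 (chr14:123659890-123659936, plus strand): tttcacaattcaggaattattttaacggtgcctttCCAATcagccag
Itgb5 (chr16:33829415-33829664, plus strand): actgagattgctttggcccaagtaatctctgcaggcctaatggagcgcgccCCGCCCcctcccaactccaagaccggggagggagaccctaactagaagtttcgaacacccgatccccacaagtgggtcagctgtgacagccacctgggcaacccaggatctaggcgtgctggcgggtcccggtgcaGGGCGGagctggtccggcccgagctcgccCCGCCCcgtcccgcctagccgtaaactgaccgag

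Windows of 250 bases before the transcript start were matched for 32 of the 50 members. In the full window, Itga3 held 3 GC boxes at 67.6% G and C, Itgb5 held 3 at 65.2%, and Nid1 held 1 GC box and 1 CCAAT box at 64.4%. RefSeq's table holds another Itga3 window, at a start inside the gene, with 1 GC box and 1 CCAAT box at 50.8%. The window of Itgbl1 was poorer in G and C at 42.4%, with 1 GC box and 1 CCAAT box, and the median of all windows was 52.4%. Over all 32851 windows, 32.7% held a GC box, 33.8% a CCAAT box, 12.4% a TATA box and 6.75% an AP-1 site. None of the 4 windows held the TATA or AP-1 letters. A match is a description of letters and shows no binding.

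**Figure D1:**
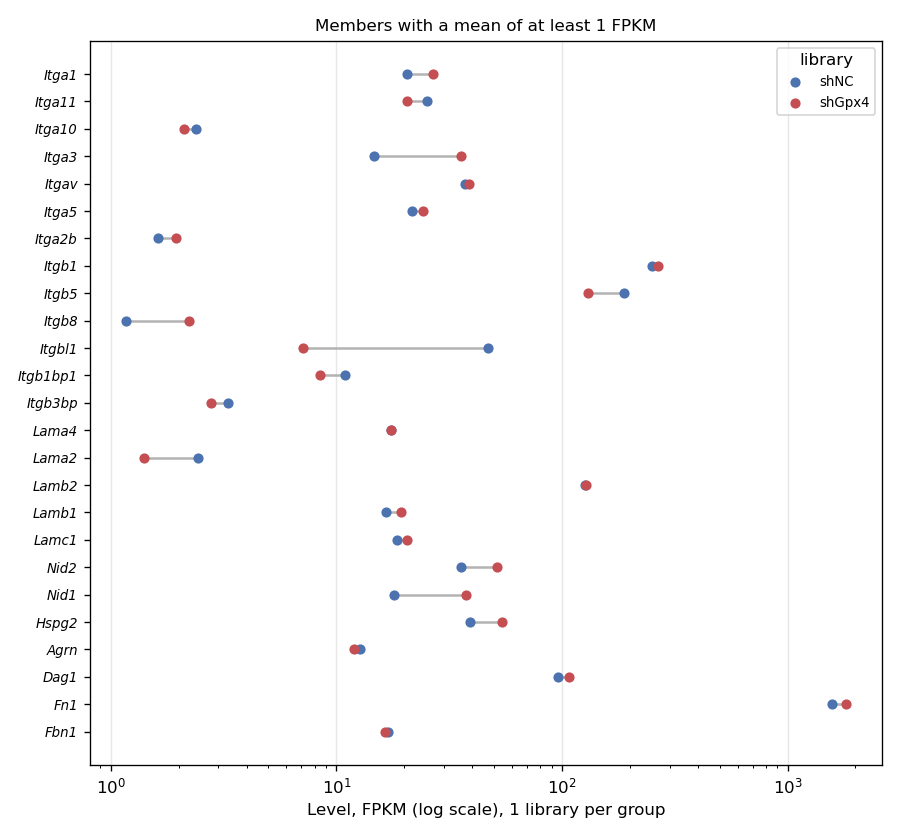
Level of each of the 25 measured members in FPKM on a log axis, with 1 point for the shNC library (blue) and 1 for the shGpx4 library (red), ordered by role from collagen-binding alpha subunits at the top to fibronectin and fibrillin 1 at the bottom. Itgbl1 has the widest gap, from 47.1 to 7.09 FPKM, and Fn1 the highest level, at 1576 and 1815 FPKM.

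Among the collagen-binding alpha subunits, which pair with the product of Itgb1, levels went both ways and their sum stayed nearly level, at 49.4 FPKM in shNC against 49.9 in shGpx4. Itga1, whose product binds collagens with a preference for collagen IV, was at 20.6 FPKM in shNC against 26.8 in shGpx4 (log2 ratio 0.36, counting interval 0.30 to 0.45). Itga11, a fibrillar collagen receptor of mesenchymal cells, was at 25.3 and 20.7 FPKM (-0.28, -0.38 to -0.21). Itga1 was thus the lower of the pair in shNC and the higher in shGpx4. Itga10, the collagen II receptor of chondrocytes, was low in both libraries, at 2.39 and 2.10 FPKM, with an interval that held 0 (-0.46 to 0.08). Itga2 fell short of the 1 FPKM mean, at 1.08 and 0.334 FPKM. Its interval of -3.51 to -0.16 lay below 0 but rests on as few as 15 and 5 reads.

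The laminin-binding group was led by Itga3, which had the highest ratio of the 25 measured members. Itga3, whose product joins that of Itgb1 in a receptor for laminins, was at 14.7 FPKM in shNC against 35.7 in shGpx4, from 1538 and 4041 reads or a multiple of them. Its log2 ratio was 1.23 with a counting interval of 1.20 to 1.37, and 52 of the 10997 measured genes lay higher. The gene lies on chromosome 11 from 95044475 to 95076844 (GRCm38.p6). The other 2 laminin-binding alpha subunits had means under 1 FPKM. Itga7, best known from skeletal muscle, was at 0.473 and 1.07 FPKM with an interval above 0 (0.54 to 1.86), and Itga6 at 0.347 and 0.481 FPKM with an interval that held 0 (-0.35 to 1.32). Beside Itga7, the other skeletal muscle markers were at or near 0, the highest being Myog at 0.0342 FPKM in shNC.

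The 3 measured alpha subunits that recognise the RGD motif of fibronectin, vitronectin and latent TGF-beta had ratios near 0. Itgav, the partner of several beta subunits, was at 37.0 and 38.7 FPKM (0.06, interval 0.01 to 0.12). Itga5, the fibronectin receptor subunit, was at 21.6 and 24.2 FPKM (0.16, interval 0.08 to 0.25). Itga2b, a platelet subunit, was at 1.62 and 1.94 FPKM with an interval that held 0 (-0.11 to 0.63). The platelet genes Gp1ba and Gp9 were listed at 0 in both libraries and Pf4 in shNC, whereas the platelet chemokine gene Ppbp was at 1.45 and 5.24 FPKM. The 6 platelet and megakaryocyte markers, of which Itga2b is 1, summed to 3.78 and 7.71 FPKM, with most of the difference from Ppbp. Gp1bb was at 0.705 and 0.450 FPKM with an interval that held 0 (-1.55 to 0.22). The part of platelet cells in the Itga2b level was not tested. Itga8, a subunit of mesenchymal and smooth muscle cells, was lower in shGpx4 at 0.835 and 0.282 FPKM, with an interval of -2.14 to -1.03 from 107 and 39 reads. The 8 smooth muscle and pericyte markers, of which Itga8 is 1, summed to 197 FPKM in shNC against 158 in shGpx4, with Acta2 at 82.3 and 44.4 FPKM and Myh11 at 0.0302 and 0.0209 FPKM. Of the 6 measured among them 3 had ratios above 0, namely Tagln (39.3 and 46.1 FPKM), Cspg4 (3.90 and 4.77 FPKM) and Rgs5 (18.2 and 19.5 FPKM).

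Itga4 and Itga9, whose products bind VCAM-1, fibronectin and other matrix ligands, were both under the 1 FPKM mean. Itga4 was at 0.418 FPKM in shNC against 1.30 in shGpx4, from 81 and 273 reads, with an interval of 1.28 to 2.02. Its exons overlap those of Cerkl (0.0907 and 0.137 FPKM) on the other strand by up to 905 bases. Reads may be shared there if strand was not used in counting. Itga9 was at 0.569 and 0.417 FPKM with an interval that held 0 (-0.94 to 0.04). The ligand gene Vcam1 was at 180.5 and 167 FPKM. The integrin genes of leukocytes were at or near 0: Itgad, Itgae, Itgal, Itgam and Itgax summed to 0.224 and 0.0906 FPKM, and Itgax was listed at 0 in both libraries. Itgad was listed at 0 in shGpx4, where 3 reads would give at most 0.035 FPKM. Ptprc, the pan-leukocyte marker, was listed at 0 in both libraries as well. Of 12 leukocyte and macrophage markers only 3 were measured, namely Lyz2 (7.67 and 1.86 FPKM), Cd14 (9.19 and 17.1 FPKM) and Cd68 (3.90 and 3.80 FPKM). The macrophage markers Csf1r (0.517 and 0.370 FPKM) and Adgre1 (0.171 and 0.0132 FPKM) were under the 1 FPKM mean.

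In shNC the alpha subunit levels ran in the order Itgav, Itga11, Itga5, Itga1 and Itga3, and in shGpx4 in the order Itgav, Itga3, Itga1, Itga5 and Itga11. Itga3 made up 11.5% of the summed alpha subunit level in shNC and 23.2% in shGpx4, and Itga11 19.9% and 13.4%. In shNC the exact 95% Poisson intervals of Itga5 (20.7 to 22.6 FPKM) and Itga1 (19.8 to 21.4 FPKM) overlapped. These intervals do not settle the order of these neighbours there. In shGpx4 the intervals of Itga3 (34.6 to 36.9 FPKM) and Itgav (37.8 to 39.7 FPKM) lay close together without overlap.

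**Figure D2:**
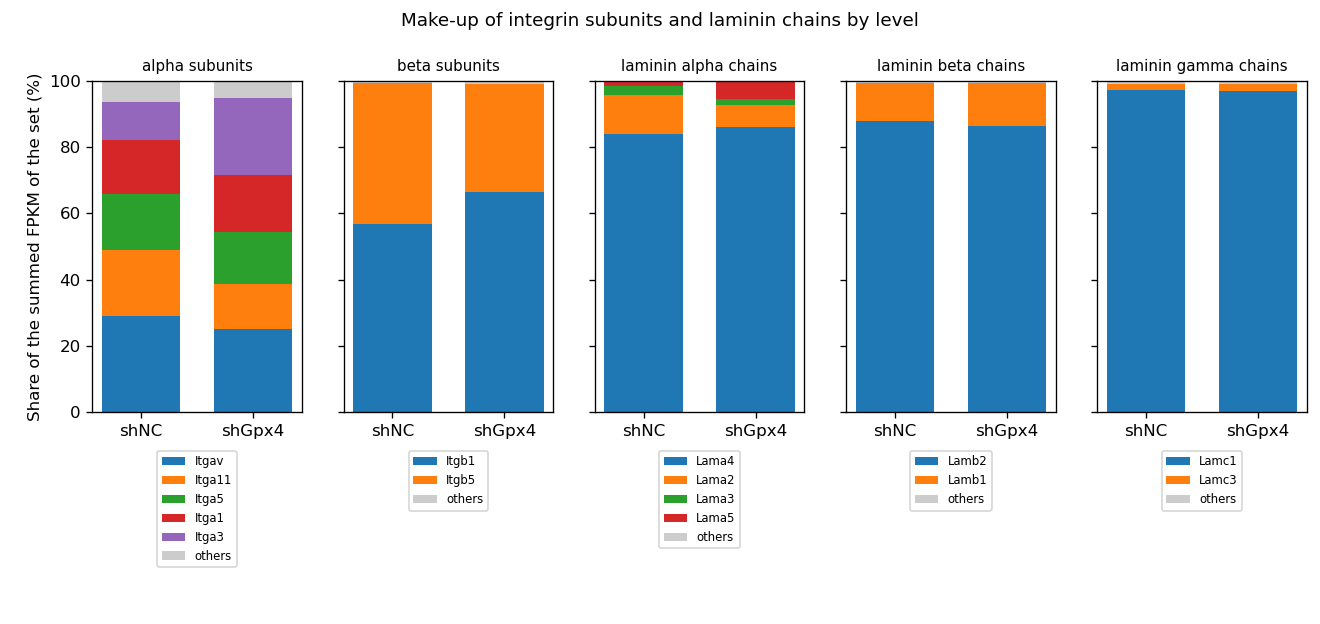
Share of each gene in the summed FPKM of its set (%), with 1 bar for each library, for integrin alpha subunits, integrin beta subunits and the 3 kinds of laminin chain; genes under 2% in both libraries are joined as others. Itga3 takes 11.5% of the alpha sum in shNC and 23.2% in shGpx4, Itgb5 42.7% and 32.6% of the beta sum, while Lama4, Lamb2 and Lamc1 hold most of their sets in both bars.

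Among the beta subunits nearly all of the level came from Itgb1 and Itgb5, which together set the sum of 440.5 FPKM in shNC against 399 in shGpx4. Itgb1, the common partner of the collagen, laminin and fibronectin receptors, was at 250.1 and 266 FPKM (log2 ratio 0.09, interval 0.06 to 0.11). Itgb5, which joins the product of Itgav in a vitronectin receptor, was at 188 FPKM in shNC against 130.4 in shGpx4 (-0.52, interval -0.58 to -0.47). It remained short of the 1.5-fold size, and 278 measured genes lay lower. Its share of the beta sum was 42.7% in shNC and 32.6% in shGpx4. In both libraries the summed beta level was above the summed alpha level, which was 127 FPKM in shNC against 154 in shGpx4.

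Itgb8, whose product with that of Itgav binds and activates latent TGF-beta, was low but higher in shGpx4, at 1.16 and 2.23 FPKM from 71 and 147 reads. Its ratio of 0.58 lay just inside the 1.5-fold size and its interval was 0.52 to 1.37, so its place depends on the scale: with a pseudocount of 0.1 the ratio was 0.88. Itgb3, the classical partner of Itgav and Itga2b, was at 0.603 and 0.629 FPKM with an interval that held 0 (-0.42 to 0.54). The epithelial Itgb4 and Itgb6 and the leukocyte Itgb2 and Itgb7 were at or below 0.206 FPKM in both libraries, and the Itgb2-like gene Itgb2l was listed at 0. The 9 epithelial markers together summed to 1.14 and 1.11 FPKM, with Epcam, Krt5, Krt8 and Krt14 listed at 0 in both libraries.

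Of the 4 genes named after integrins, Itgbl1 had the lowest ratio. Itgbl1 encodes a secreted protein with repeats like those of integrin beta subunits but without a membrane anchor, and is known from cartilage and other skeletal tissue. It was at 47.1 FPKM in shNC against 7.09 in shGpx4, from 2383 and 387 reads, so 15.0% of the shNC level remained. The log2 ratio was -2.57 with an interval of -2.89 to -2.58, and only 1 gene among the 10997 measured lay lower. In shNC 1322 genes had a higher level than Itgbl1, and in shGpx4 6732 did. The gene spans chromosome 14 from 123659937 to 123978865.

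Itgb1bp1, a cytoplasmic protein that binds the Itgb1 tail and restrains its activation, was at 10.9 and 8.43 FPKM (-0.34, interval -0.56 to -0.20). Its exons overlap those of Cpsf3 and Asap2 on the other strand, by up to 125 and 366 bases, and Cpsf3 was at 18.9 and 20.0 FPKM, so reads may be shared if strand was not used in counting. Itgb3bp, also known as centromere protein R, was at 3.32 and 2.77 FPKM with an interval that held 0 (-0.54 to 0.03), and it overlaps Pgm1 in the same way by 398 bases. Itgb1bp2, a muscle protein, rested on 2 and 3 reads or a multiple of them.

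**Figure D3:**
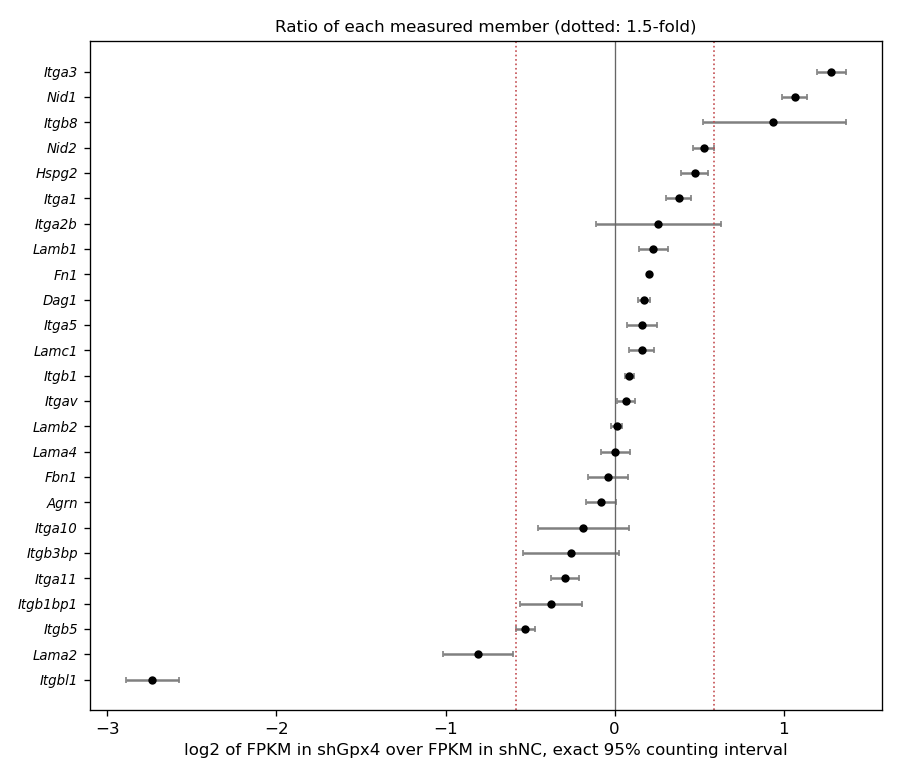
Ratio of shGpx4 to shNC, as log2 of the FPKM values, for the 25 measured members, with exact 95% counting intervals and dotted lines at 1.5-fold. Itga3 and Nid1 lie right of the upper line and Itgbl1 far left of the lower one; nothing is added to the FPKM here, so Itgb8 and Lama2 also lie outside the lines, which they do not on the scale with 1 added.

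Laminin chains were present as a small set dominated by Lama4, Lamb2 and Lamc1, and their summed level was 183 FPKM in shNC against 189 in shGpx4. Lama4, an alpha chain of mesenchymal and vascular laminins, was at 17.5 FPKM in both libraries (log2 ratio 0.0035, interval -0.08 to 0.09). Lamb2 was at 126 and 127 FPKM (0.01, interval -0.02 to 0.05) and made up 87.9% and 86.3% of the beta chain level. Lamb1, the other widely expressed beta chain, was at 16.6 and 19.4 FPKM (0.22, interval 0.14 to 0.31), and Lamc1, the common gamma chain to which nidogens bind, at 18.5 and 20.7 FPKM (0.15, interval 0.09 to 0.23). None of the 5 measured chains reached 1.5-fold in either direction, a size that only 4.96% of all measured genes reached.

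The alpha chains other than Lama4 differed more, at low levels. Lama2, the merosin chain of muscle and nerve, was at 2.44 FPKM in shNC against 1.40 in shGpx4 (-0.52, interval -1.02 to -0.60). Lama5, the alpha chain of most adult epithelial and vascular basement membranes, was at 0.254 and 1.05 FPKM from 59 and 263 reads, with an interval of 1.63 to 2.48. Lama3, an epithelial chain, was at 0.594 and 0.334 FPKM (interval -1.24 to -0.43). Lama2 and Lama3 were therefore lower and Lama5 higher in shGpx4 beyond counting error, and Lama5 passed from the 4th to the 3rd place among the 5 alpha chains. Lama1, Lamb3 and Lamc3 stayed at or below 0.803 FPKM, all with intervals that held 0. Of 7 endothelial markers, Cdh5 was listed at 0 in both libraries, and only Eng was measured, at 3.22 and 6.67 FPKM. Eng made up nearly all of the sum of the 7, which was 3.34 FPKM in shNC against 6.73 in shGpx4. Vwf was at 0.0558 and 0.0414 FPKM, and Pecam1, Kdr, Tek and Emcn were below it in both libraries. The part of endothelial cells in the Lama5 level was not tested.

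Both nidogens were higher in shGpx4. Nid1, which links laminin to collagen IV, was at 17.9 FPKM in shNC against 37.5 in shGpx4, from 2137 and 4828 reads, with a log2 ratio of 1.02 and an interval of 0.99 to 1.14. Of all measured genes 95 had a higher ratio. Nid2, its homologue, was the more abundant of the pair in both libraries, at 35.6 and 51.3 FPKM (0.51, interval 0.46 to 0.59), short of 1.5-fold. The exons of Nid2 overlap those of Rtraf on the other strand by up to 437 bases, and Rtraf has no level under that symbol. Reads may be shared there if strand was not used in counting. Nid1 lies on chromosome 13 from 13437602 to 13512275 and Nid2 on chromosome 14 from 19751257 to 19811787.

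The heparan sulphate proteoglycans differed from each other. Hspg2, which encodes perlecan of the chondrocyte pericellular matrix, was at 39.1 FPKM in shNC against 54.3 in shGpx4 (0.46, interval 0.39 to 0.55). Agrn, which encodes agrin, was at 12.7 and 12.0 FPKM with an interval that held 0 (-0.17 to 0.01). Dag1, the dystroglycan that receives laminin, agrin and perlecan at the membrane, was at 95.8 and 108 FPKM (0.17, interval 0.14 to 0.21).

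Fibronectin gave the highest level of the set by far. Fn1 was at 1576 FPKM in shNC against 1815 in shGpx4 (0.20, interval 0.20 to 0.21), which was 60.5% and 63.5% of the summed level of all 50 members. Only 18 genes in shNC and 12 in shGpx4 had a higher level. Fbn1, the fibrillin that forms microfibrils in adult tissue, was at 16.9 and 16.4 FPKM with an interval that held 0 (-0.16 to 0.08). Fbn2, the fibrillin of developing tissue, was at 0.406 and 0.578 FPKM (interval 0.12 to 0.91), under the mean of 1 FPKM.

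**Figure D4:**
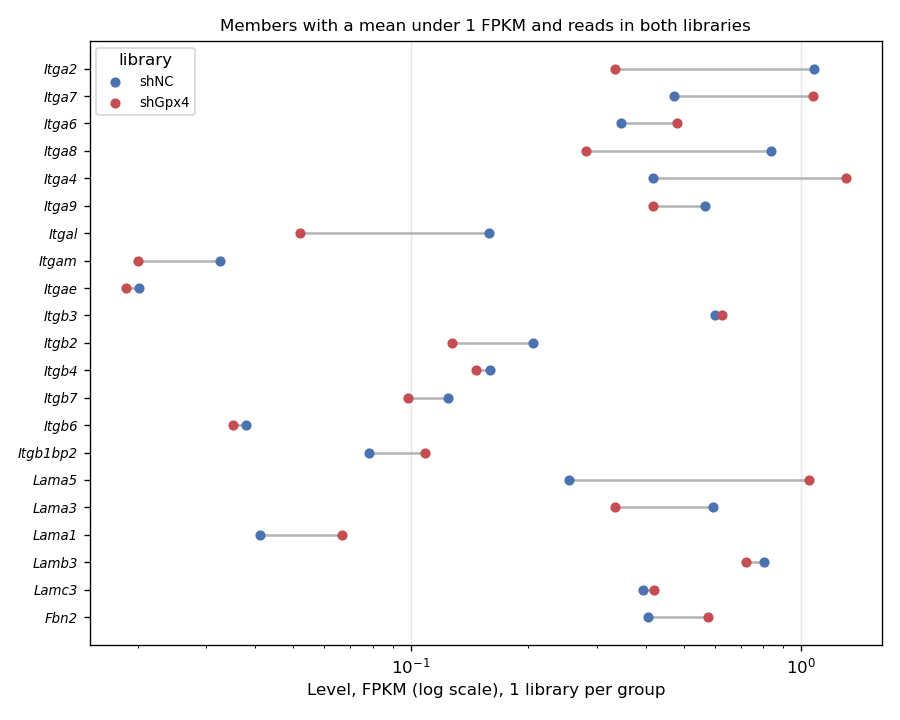
Level in FPKM on a log axis of 21 members that had a mean under 1 FPKM and reads in both libraries, shNC in blue and shGpx4 in red. The widest gaps are those of Lama5, Itga4, Itga2, Itga8 and Itgal; the last rests on 17 and 6 reads or a multiple of them.

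In all, 25 members had a mean under 1 FPKM, with no level above 1.08 FPKM in shNC or 1.30 FPKM in shGpx4. Of these, 4 had a counting interval above 0 (Itga4, Itga7, Lama5 and Fbn2) and 4 had one below 0 (Itga2, Itga8, Itgal and Lama3). Another 15 had one that held 0, and Itgax and Itgb2l were listed at 0 in both. The same shares over all genes with a mean under 1 FPKM were not computed, so these counts have no background beside them. In 13 of the 25, fewer than 10 reads were recovered in at least 1 library, and recovered reads are a lower limit.

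The genes through which integrins act inside the cell lay close to 0 with few exceptions. Of 33 integrin activators and adhesion plaque genes 29 were measured, with a median of -0.00025 beside -0.04 over all measured genes. Of these 29, 2 were at least 1.5-fold lower and none was that much higher, beside 1.96% and 2.99% of all measured genes. Nedd9, a docking protein of the p130Cas family, was at 12.2 and 6.44 FPKM (-0.83), and Tns3, a tensin that binds beta subunit tails, at 77.3 and 49.0 FPKM (-0.65). The actin crosslinker Flna was at 81.1 and 103 FPKM (0.35) and Parvb, a parvin that binds integrin-linked kinase, at 3.50 and 2.46 FPKM (-0.38). Among 14 tetraspanins and other membrane partners, all measured, only Plaur was past 1.5-fold, beside 4.96% of all measured genes either way. Plaur, the urokinase receptor, was at 3.67 and 8.05 FPKM (0.96). Sdc4, the syndecan of focal adhesions, was at 218 and 300.0 FPKM (0.46), Cd151, a tetraspanin that associates with laminin-binding integrins, at 108 and 143 FPKM (0.40), and the caveolin gene Cav1 at 82.1 and 66.7 FPKM (-0.30). The median of these 14 was 0.06.

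Other integrin ligands went both ways. Of 22 genes 19 were measured, with a median of -0.06. Of these 19, 1 was at least 1.5-fold higher and 6 were that much lower, beside 2.99% and 1.96% of all measured genes. Tenascin C (Tnc) was the higher one, at 15.8 and 43.5 FPKM (1.41). Nov, a CCN family protein, was at 30.1 and 9.14 FPKM (-1.62), periostin (Postn) at 948 and 327 FPKM (-1.53), and thrombospondin 2 (Thbs2) at 59.1 and 25.9 FPKM (-1.16). Spp1, the osteopontin gene, was the most abundant ligand, at 8720 and 8897 FPKM (0.03), and vitronectin (Vtn), the ligand of the receptor that Itgb5 forms, was listed at 0 in both libraries.

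Genes of basement membrane collagens and assembly factors went both ways. Of 24 such genes, 12 were measured, with a median of 0.03. Of these 12, 2 were at least 1.5-fold higher and 3 that much lower, beside 2.99% and 1.96% of all measured genes. Col18a1, a basement membrane collagen, was at 9.48 and 19.8 FPKM (0.99), and Tinagl1, a secreted basement membrane protein, at 9.53 and 18.4 FPKM (0.88). The matricellular genes Smoc2 (32.3 and 9.17 FPKM, -1.71) and Smoc1 (30.8 and 14.9 FPKM) were lower. Col4a1 and Col4a2, the chains of the common collagen IV, were at 33.7 and 35.4 FPKM and at 33.5 and 35.0 FPKM (0.07 and 0.06), beside 1.02 for Nid1, which connects laminin to this network. Col4a6, a chain of a rarer collagen IV, was at 3.10 FPKM in shNC and lower in shGpx4 (-0.71).

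Dystroglycan's measured partners showed small ratios. Of 23 glycosylation and dystrophin complex genes, 17 were measured. None of the 17 was past 1.5-fold, beside 4.96% of all measured genes either way. Their median was -0.11, and 14 had a ratio below 0, beside 58.7% of all measured genes. Dtnb, a dystrobrevin, was nearest to 1.5-fold at 7.61 and 11.8 FPKM (0.57). Sspn (-0.34), Sgce (-0.30) and Sntb2 (-0.29), which encode parts of the same complex, were lower. Under the mean of 1 FPKM, Dmd, the dystrophin gene, was at 0.879 and 0.516 FPKM (interval -1.03 to -0.51). Dtna was at 0.757 and 1.14 FPKM (interval 0.29 to 0.89). Of 25 microfibril and elastic fibre genes 21 were measured, with a median of 0.07. Of these 21, 3 were at least 1.5-fold higher and 1 that much lower, beside 2.99% and 1.96% of all measured genes. Loxl4 (0.67) and Loxl1 (0.63), which encode lysyl oxidases, and Ltbp1 (0.60), a fibrillin-bound carrier of latent TGF-beta, were the higher ones, and Fbln5, an elastic fibre protein, was at 72.8 and 41.3 FPKM (-0.80). The elastin gene Eln was at or near 0 in both libraries.

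**Figure D5:**
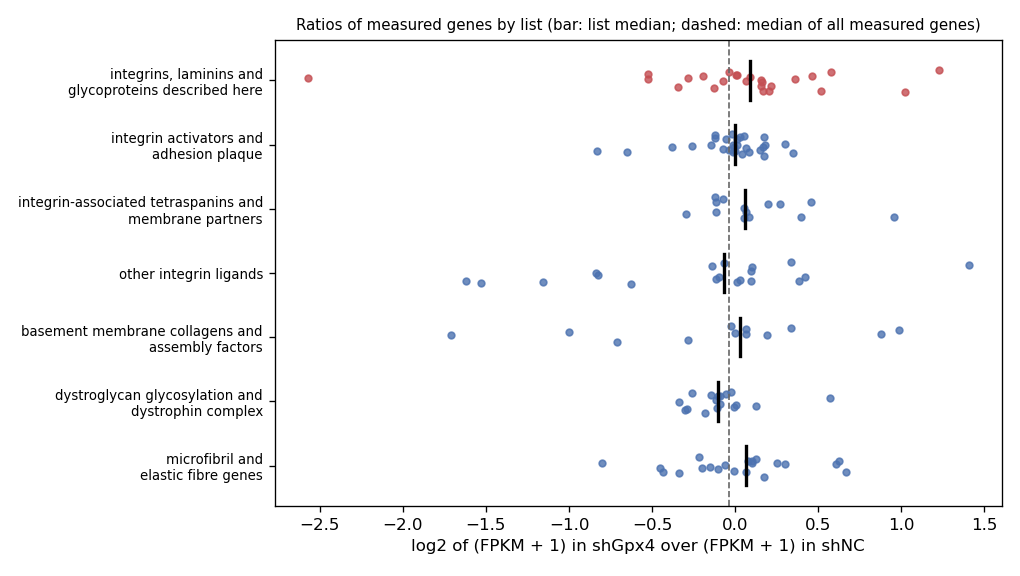
Ratio of shGpx4 to shNC, as log2 with 1 added to each FPKM, for the 25 measured members (red) and for the measured genes of 6 lists of the same pathway (blue), with 1 point for each gene, a bar at each median and a dashed line at the median of all measured genes, -0.04. Itgbl1 lies lowest of all points shown; Tnc, Itga3 and Nid1 lie highest.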

How the data were processed

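The authors deposited 1 table per library with RefSeq gene symbols. Its values are FPKM, as judged by their steps and by Cufflinks, named in the submitters' processing notes beside Trimmomatic, HISAT2 and the build GRCm38 without versions. The strand setting is not given in the sources used here; per the labels' protocols the kit was stranded. Library totals were recovered from the steps of low values, and reads as the lowest whole counts that fit both libraries, which is a lower limit. They sum to 89.9% (shNC) and 90.0% (shGpx4) of the totals. Counting intervals are exact Clopper-Pearson (ratios) and exact Poisson (levels), at 95%. Reads of an amplified library are not independent molecules.

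A pseudocount of 1, a minimum mean of 1 FPKM and a size of 1.5-fold were used. The members and lists were chosen with earlier results of these data known. All measured members were named, and up to 4 genes of each of 6 pathway lists by largest absolute ratio. Spp1, Vtn, Vcam1, Eln, Col4a1, Col4a2, Col4a6, Dmd, Dtna and the Y-linked and proliferation genes were added with their values known. Of the list entries, 4 symbols did not match. The values of 1 member are not reported here. Alternatives were a pseudocount of 0.1, 4 rescalings, a minimum mean of 5, no filter, a 2-fold size and recovered reads with 0.5 added. The computation was tested on simulated data. Positions and upstream sequences are RefSeq's on GRCm38.p6, exon overlaps GENCODE's. The work used scipy 1.17.1 and pandas 2.3.3 under Python 3.11.15, with figures drawn in matplotlib 3.10.9 and numpy 2.4.6 for arrays.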

Additional observations from a re-analysis of the deposited data

How the results depend on the processing

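No paired analysis was possible because each group has 1 library, and leaving out a replicate was not possible for the same reason. The median of the measured members stayed within 0.1 of 0.09 under all 10 alternatives run. The rescalings moved all genes by up to 0.044 on the log2 scale. Members at least 1.5-fold lower numbered 2 with a pseudocount of 0.1, 2 with recovered reads and 2 with no filter (1 otherwise), and 0 without the 4 genes that encode no subunit; Lama2 was the added one in the first pair of settings and Itga2 in the third. Members at least 1.5-fold higher numbered 4 with no filter and 4 among members with at least 10 reads in each library, a setting chosen after seeing the data, where Itga4 and Lama5 joined. The median of the alpha subunits was -0.0021 with no filter, where most leukocyte and low genes sit near 0. With a minimum mean of 5 the medians of the beta subunits and of the genes named after integrins were -0.22 and -1.46, each over 2 genes. At 2-fold, 0 adhesion plaque genes, 0 membrane partners, 4 ligands, 2 basement membrane genes and 0 microfibril genes were past the size. Over all measured genes, 1.02% were past 2-fold upward and 0.527% downward. In the dystroglycan list 1 gene, Dtnb, passed 1.5-fold with a pseudocount of 0.1, after centring, after both rescalings by percentile and trimmed mean, and with recovered reads. Itgb8 passed 1.5-fold under the same 5 settings. Fbn1, at -0.04, turned to at most 0.0059 after centring or those rescalings. No other measured member changed sign.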
